A study of Mus musculus with 12 samples.

Results

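Ptprc, Ptpn6, Arhgdib and Ikzf1 are 4 genes that blood cells of the leukocyte lineages share, and they were taken by name from the 561 genes of a NanoString panel. Ptprc encodes CD45, the receptor-type tyrosine phosphatase of the leukocyte surface. Ptpn6 encodes SHP-1, a cytoplasmic tyrosine phosphatase. Arhgdib encodes a GDP-dissociation inhibitor, which holds small GTPases in an inactive, soluble form, and Ikzf1 encodes Ikaros, a zinc-finger transcription factor of lymphoid development. All 4 passed the filter on low counts, as did 282 of the 547 endogenous genes of the panel, the other 14 being housekeeping genes. Tfrc, the transferrin receptor through which erythroid precursors take up iron, was read in the same samples as the erythroid counterpart.

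Each sample was RNA from 500000 spleen cells enriched for Ter-119, an erythroid surface antigen, by magnetic beads after a density gradient. The donors were male F1 mice of a CBA by C57BL/6 cross, aged 3 to 5 months, and spleens were removed on day 3. The 4 hypoxia samples came from mice held for 16 h in a hypobaric chamber at -46 kPa, equal to an altitude above 4500 m. The 4 blood loss samples came from mice bled of 0.5 to 0.8 mL at the retro-orbital sinus under isoflurane, and the normal samples from mice under standard housing. Of the 4 normal columns 1 was left out, because for each of the 561 genes it holds the middle value of the other 3 columns with 3 added, and 3 normal samples remain. The labels do not tie samples to animals, so a p-value here reflects how samples vary, and part of that variation may be technical.

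CD45 removes the inhibitory tyrosine phosphate from Src-family kinases and so keeps antigen receptors able to signal. SHP-1 acts in the opposite sense: it is recruited to inhibitory receptors through their phosphorylated ITIM motifs and dampens Src, Syk and JAK signals. In erythroid cells SHP-1 is known to bind the erythropoietin receptor and to end JAK2 signalling, while CD45 is lost from the surface as erythroid precursors mature. Ikaros is known in mice for its part in lymphoid commitment and in the switching of globin genes. Members of the ETS family, among them the leukocyte factor PU.1, bind sites with a GGAA core and are known regulators of many leukocyte genes.

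The promoters of the 4 genes are shown because they are the regulatory sequence that a reader would compare between genes expressed in the same lineages. The stretches of 100 bases below are from RefSeq (GRCm38.p6), read 5′ to 3′ on the strand of the gene, and the capitals mark the letters AGGAAG or their reverse complement CTTCCT, an ETS-like motif chosen after the sequences were seen. They lie at chr1:138175456-138175555 (minus strand) for Ptprc, chr6:124738844-124738943 (minus strand) for Ptpn6, chr6:136941654-136941753 (minus strand) for Arhgdib and chr11:11689997-11690096 (plus strand) for Ikzf1. The 2 copies in Arhgdib overlap.
Ptprc: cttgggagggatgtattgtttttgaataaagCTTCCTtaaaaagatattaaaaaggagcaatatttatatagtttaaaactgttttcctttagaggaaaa
Ptpn6: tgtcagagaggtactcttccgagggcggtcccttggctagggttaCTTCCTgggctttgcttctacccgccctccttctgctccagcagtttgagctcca
Arhgdib: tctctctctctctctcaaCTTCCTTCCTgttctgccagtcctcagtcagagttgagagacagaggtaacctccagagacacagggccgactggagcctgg
Ikzf1: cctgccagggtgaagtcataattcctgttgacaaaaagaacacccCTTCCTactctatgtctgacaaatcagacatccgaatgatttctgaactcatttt
In the window of 250 bases before to 50 bases after a gene start, the motif was found on either strand in at least 1 window of each of the 4 genes, and also in both windows of Tfrc. Of all 32851 such windows 35.35% hold it, and 38.42% of 27025 genes have it in at least 1 window, so these letters do not set the 4 genes apart.

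Total raw counts were 44254 to 81370 in hypoxia samples, 7016 to 31006 in blood loss samples and 43956, 161054 and 253712 in normal samples 1, 2 and 3. Normal sample 1 stood apart from normal samples 2 and 3, with a chi-square per degree of freedom of 66.9 and 82.7 between their counts, where every other pair within a group had 1.56 to 13.7. Results against normal are therefore also given without it. Levels are raw counts divided by the geometric mean of 6 housekeeping genes, with these factors set to a geometric mean of one over the samples. The housekeeping genes were not steady. Eef1g, a translation elongation factor subunit, had levels of 534 to 713 in hypoxia, 297 to 392 in blood loss and 575 to 776 in normal samples, and Rpl19, a ribosomal protein gene, had 2286, 450 and 1022 in the 3 normal samples. For this reason each member is also given against other scalings and as a ratio to another gene of the same sample, which needs no scaling. The erythroid label was set against the 4 erythroid genes of the marker list that are on the panel, which did not all move one way. Tfrc and Cd36 were called higher than normal in both conditions and Cd55 lower. Of all tested genes 7.09% were called higher in hypoxia and 9.22% after blood loss, and 36.5% and 17% lower. Tal1 was also called higher in both, but it passed the filter on low counts through treated samples alone. It thus had to differ, and its call carries no weight. Tal1, an erythroid transcription factor, averaged a level of 32.3 in hypoxia, 42.2 in blood loss and 3.01 in normal samples. Hypoxia sample 2 stood at 87.6 and the other hypoxia samples at 7.58 to 17.4. Raw Tal1 counts in the normal samples were 3, 11 and 14.

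Both phosphatase genes and Arhgdib were lower in hypoxia than in normal samples, and Ptpn6 and Arhgdib were lower after blood loss than in normal samples, relative to the housekeeping genes. In bulk RNA, fewer cells of a type and less RNA per cell cannot be told apart. Against normal, 3 of the 4 genes were called lower in hypoxia, where 36.5% of the 282 tested genes were called lower and 7.09% higher. After blood loss 2 of the 4 were called lower, where 17% of tested genes were called lower and 9.22% higher. For the same 3 and 2 genes the treated group lay wholly below the normal samples, as it did for 35.5% of tested genes in hypoxia and 16.7% after blood loss. Ikzf1 was not called in either comparison, and no member was called between hypoxia and blood loss.

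**Figure D1:**
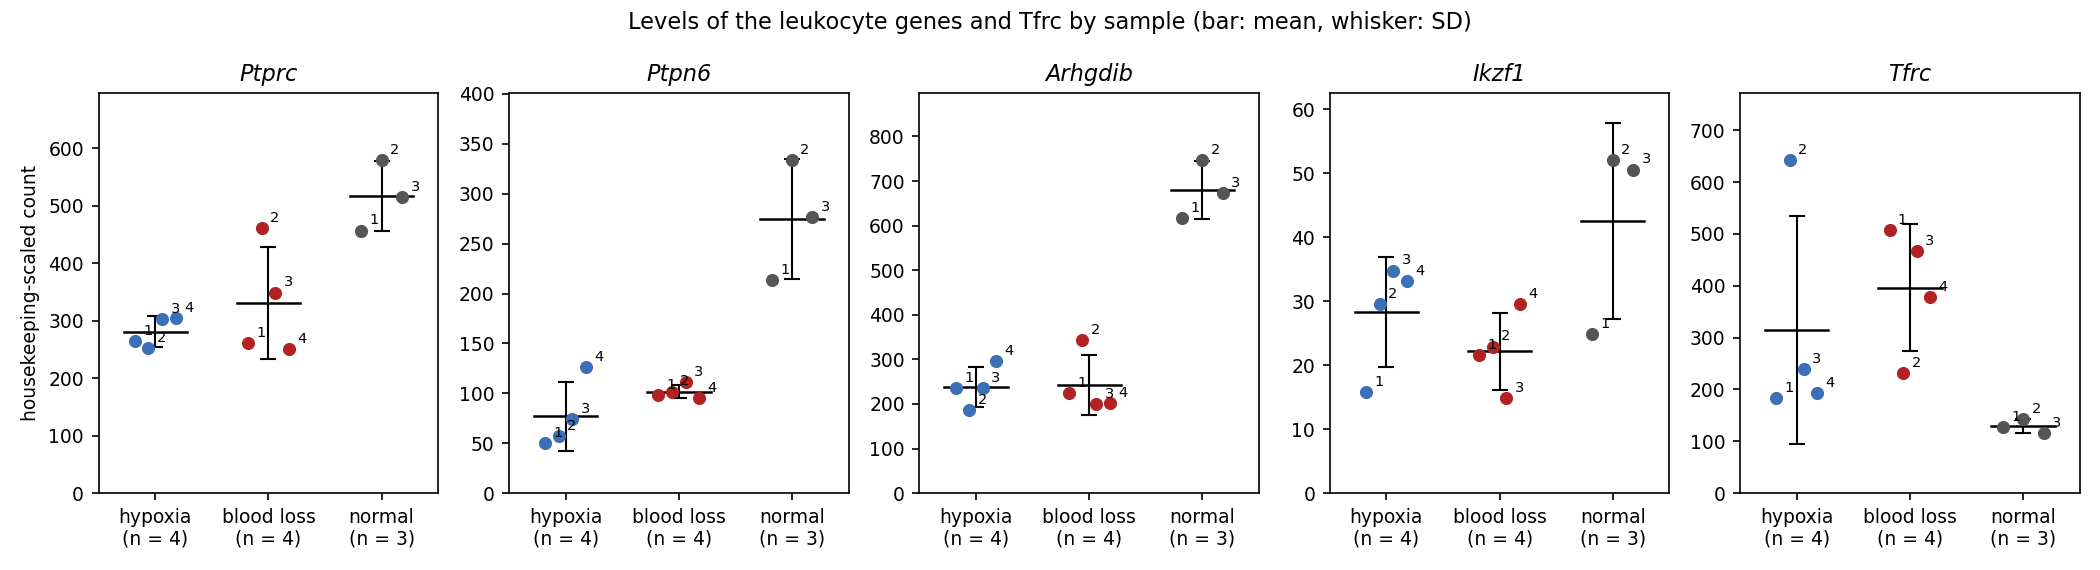
Housekeeping-scaled count (y axis, from 0) of each of the 4 leukocyte genes and of Tfrc in every hypoxia, blood loss and normal sample, with replicate numbers at the points, the mean as a bar and the SD as whiskers. The normal samples of Ptpn6 (214 to 334) and Arhgdib (617 to 747) stand above all 8 treated samples, while those of Tfrc (116 to 143) stand below them.

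Ptpn6 had levels of 50.3, 57.1, 74.2 and 126 in hypoxia samples, 98.4, 102, 111 and 95.6 in blood loss samples and 214, 334 and 277 in normal samples. Every treated sample lay below every normal sample, and the blood loss samples were close together while hypoxia sample 4 stood above the other hypoxia samples. The means were 76.9 ± 34.3 in hypoxia, 102 ± 6.80 in blood loss and 275 ± 60.1 in normal samples (SD, n = 4, 4 and 3). By edgeR's quasi-likelihood test the log2 fold change against normal was -1.83 (SE 0.29, adjusted p = 2.68e-05) in hypoxia and -1.45 (SE 0.31, adjusted p = 0.00112) after blood loss.

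Arhgdib had levels of 236, 187, 235 and 296 in hypoxia samples, 225, 344, 200.2 and 202 in blood loss samples and 617, 747 and 673 in normal samples. Again all 8 treated samples lay below the 3 normal ones, with blood loss sample 2 above the rest of its group. The means were 239 ± 44.9, 243 ± 68.2 and 679 ± 65.2 for hypoxia, blood loss and normal samples (SD, n = 4, 4 and 3). The log2 fold change against normal was -1.51 (SE 0.28, adjusted p = 0.000121) in hypoxia and -1.48 (SE 0.29, adjusted p = 0.000552) after blood loss.

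Ptprc had levels of 264, 252, 303 and 304 in hypoxia samples, 261, 461, 349 and 250 in blood loss samples and 457, 579 and 515 in normal samples. The hypoxia samples all lay below the normal samples. Blood loss sample 2 reached into the normal range, and the other 3 blood loss samples did not. The means were 281 ± 26.9, 330.2 ± 97.4 and 517 ± 61.3 for hypoxia, blood loss and normal samples (SD, n = 4, 4 and 3). The log2 fold change against normal was -0.88 in hypoxia (SE 0.28, adjusted p = 0.0117) and -0.65 after blood loss (SE 0.28, adjusted p = 0.0837), which did not pass. Without normal sample 2 the hypoxia value was -0.79 and no longer passed (adjusted p = 0.0585), and without blood loss sample 2 the blood loss value was -0.87 and passed (adjusted p = 0.0281).

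Ikzf1 had levels of 15.9, 29.5, 34.8 and 33.2 in hypoxia samples, 21.5, 22.9, 14.8 and 29.5 in blood loss samples and 24.9, 52.1 and 50.6 in normal samples. Normal sample 1 lay within the range of both treated groups, while normal samples 2 and 3 lay above all treated samples. Its raw counts were low, at 23 to 61 in hypoxia, 2 to 21 in blood loss and 22, 169 and 313 in normal samples, so that counting error alone is wide in the blood loss group. The log2 fold change against normal was -0.62 in hypoxia (SE 0.30, adjusted p = 0.0873) and -0.87 after blood loss (SE 0.35, adjusted p = 0.0704). Without normal sample 1 both values passed edgeR's test, at -0.85 (adjusted p = 0.0138) in hypoxia and -1.09 (adjusted p = 0.0146) after blood loss. Of the 7 fits with 1 sample left out, this was the only 1 that called Ikzf1 in either comparison. Those fits called 67 to 133 genes in hypoxia and 39 to 94 after blood loss, lower or higher.

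These calls stand on a panel in which many genes were lower. The tested genes together had a median log2 fold change against normal of -0.56 in hypoxia and -0.26 after blood loss. This background moves with the scaling: the median was 0.027 in hypoxia and 0.031 after blood loss with TMM factors, and -0.084 and -0.63 with the deposited size factors. The split of calls moved with it. In hypoxia 103 genes were called lower and 20 higher with the housekeeping scaling, 53 and 57 with TMM factors and 64 and 52 with the deposited factors. After blood loss the counts were 48 lower and 26 higher, against 37 and 41 with TMM factors, 93 and 15 with 14 housekeeping genes and 124 and 14 with the deposited factors. Relative to the median under housekeeping scaling, Ptpn6 stood at -1.27 and -1.19 and Arhgdib at -0.95 and -1.22 in hypoxia and after blood loss, whereas Ptprc stood at -0.32 and -0.40 and Ikzf1 at -0.063 and -0.61. Counted from the lowest log2 fold change of 282, Ptpn6 ranked 23 in hypoxia and 22 after blood loss, Arhgdib 40 and 20, Ptprc 96 and 86, and Ikzf1 125 and 60. The 2 comparisons share the 3 normal samples, so their values are set side by side and are not independent. Without normal sample 1 the log2 fold changes, here not set against the median, were -1.98 in hypoxia and -1.60 after blood loss for Ptpn6. With all 3 normal samples they were -1.83 and -1.45. Those of Arhgdib were -1.57 and -1.54 and those of Ptprc -0.96 and -0.73 without normal sample 1. In edgeR's test all of these but the blood loss value of Ptprc (adjusted p = 0.0552) were called. The share of all genes called in that fit is not given here. With normal sample 1 as the only normal sample, a choice made once the data had been seen, the normal arm has no spread of its own and is assumed to vary like the treated groups. In that fit Arhgdib was called lower in hypoxia (-1.37, adjusted p = 0.0253) and after blood loss (-1.34, adjusted p = 0.0282). Ptpn6 was then called in hypoxia (-1.46, adjusted p = 0.0255) and not after blood loss (-1.08, adjusted p = 0.126), and Ptprc and Ikzf1 were not called in either.

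Between hypoxia and blood loss the log2 differences were -0.23 (SE 0.26) for Ptprc, -0.38 (SE 0.30) for Ptpn6, -0.031 (SE 0.27) for Arhgdib and 0.24 (SE 0.35) for Ikzf1. Their adjusted p-values by edgeR's quasi-likelihood test were 0.418 to 0.960, and the groups overlapped for each gene. In this comparison 10.6% of tested genes were called lower and 0.709% higher in hypoxia. The signs are not settled: with the deposited size factors the differences were 0.67, 0.46, 0.84 and 1.05 for Ptprc, Ptpn6, Arhgdib and Ikzf1, and all but that of Ptpn6 were called higher in hypoxia. That scaling called 33.3% of tested genes higher and put the median of all genes at 0.54.

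**Figure D2:**
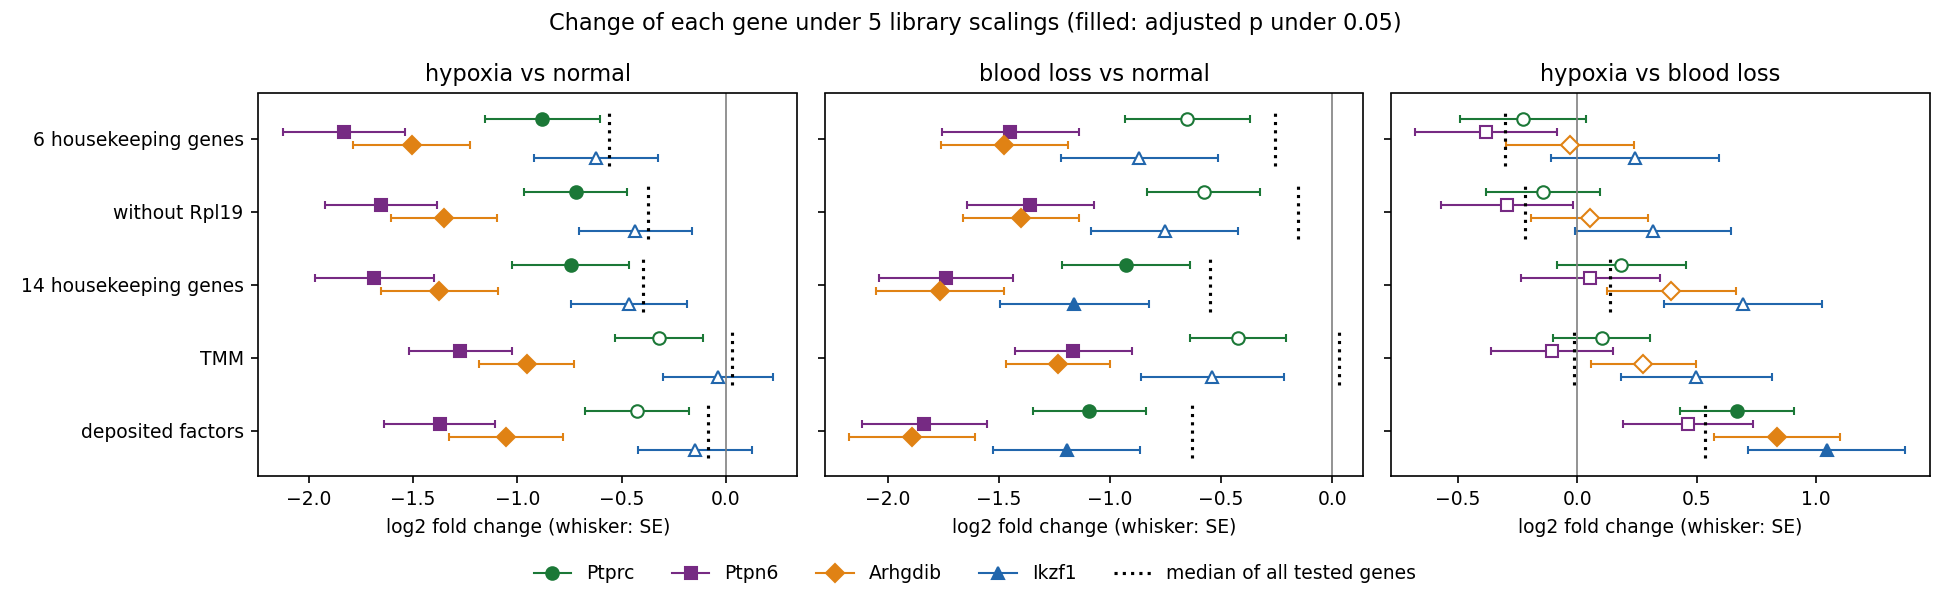
Log2 fold change (x axis, whiskers SE) of each of the 4 genes under 5 scalings of the counts (y axis), for hypoxia against normal, blood loss against normal and hypoxia against blood loss, with a dotted line at the median of all tested genes. Filled symbols are calls at an adjusted p under 0.05: Ptpn6 and Arhgdib are filled in every scaling against normal.

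Ptpn6 and Arhgdib were called lower against normal in hypoxia and after blood loss in all 6 settings compared: the 6 housekeeping genes, the same without Rpl19, all 14 housekeeping genes, TMM factors, the deposited size factors and DESeq2. The log2 fold change of Ptpn6 ranged from -1.83 to -1.27 in hypoxia and from -1.84 to -1.17 after blood loss, and that of Arhgdib from -1.51 to -0.96 and from -1.89 to -1.23. Ptprc was called lower in 3 of the 6 settings in hypoxia (range -0.88 to -0.32) and in 2 after blood loss (-1.09 to -0.43). Ikzf1 was called lower in 0 of 6 in hypoxia by either tool, with an unadjusted p of 0.0449 in the quasi-likelihood test, and in 2 after blood loss (-1.20 to -0.54). In the counts as the authors normalized them, Ptprc had 336 to 496 in hypoxia, 211 to 370 in blood loss and 534 to 605 in normal samples. Neither treated group overlapped the normal samples on this scale. The share of all tested genes with such a gap was not computed, so Ptprc is not set against a background here. Set against each of the 6 housekeeping genes singly, the hypoxia samples of Ptprc, Ptpn6 and Arhgdib lay below all normal samples with 6 of 6 genes. Of all tested genes 17% did so with all 6. Ikzf1 did so with 1 of 6 in hypoxia and 2 of 6 after blood loss. The blood loss samples of Ptprc, Ptpn6 and Arhgdib lay below all normal samples with 3, 4 and 5 of 6, and 19.1% of tested genes did so with 3 or more.

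The ratio to Tfrc joins any change of the leukocyte gene with the higher level of Tfrc. Tfrc had levels of 184, 642, 239 and 193 in hypoxia samples, 507, 232, 467 and 378 in blood loss samples and 128, 143 and 116 in normal samples. All treated samples lay above the normal samples, and hypoxia sample 2 stood far above the other hypoxia samples. The log2 fold change of Tfrc against normal was 1.28 (SE 0.38, adjusted p = 0.00733) in hypoxia and 1.61 (SE 0.39, adjusted p = 0.00303) after blood loss, and it was called higher in all 6 settings. Each ratio below is of raw counts of 2 probes whose efficiencies may differ, so it compares samples and is no ratio of molecules.

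**Figure D3:**
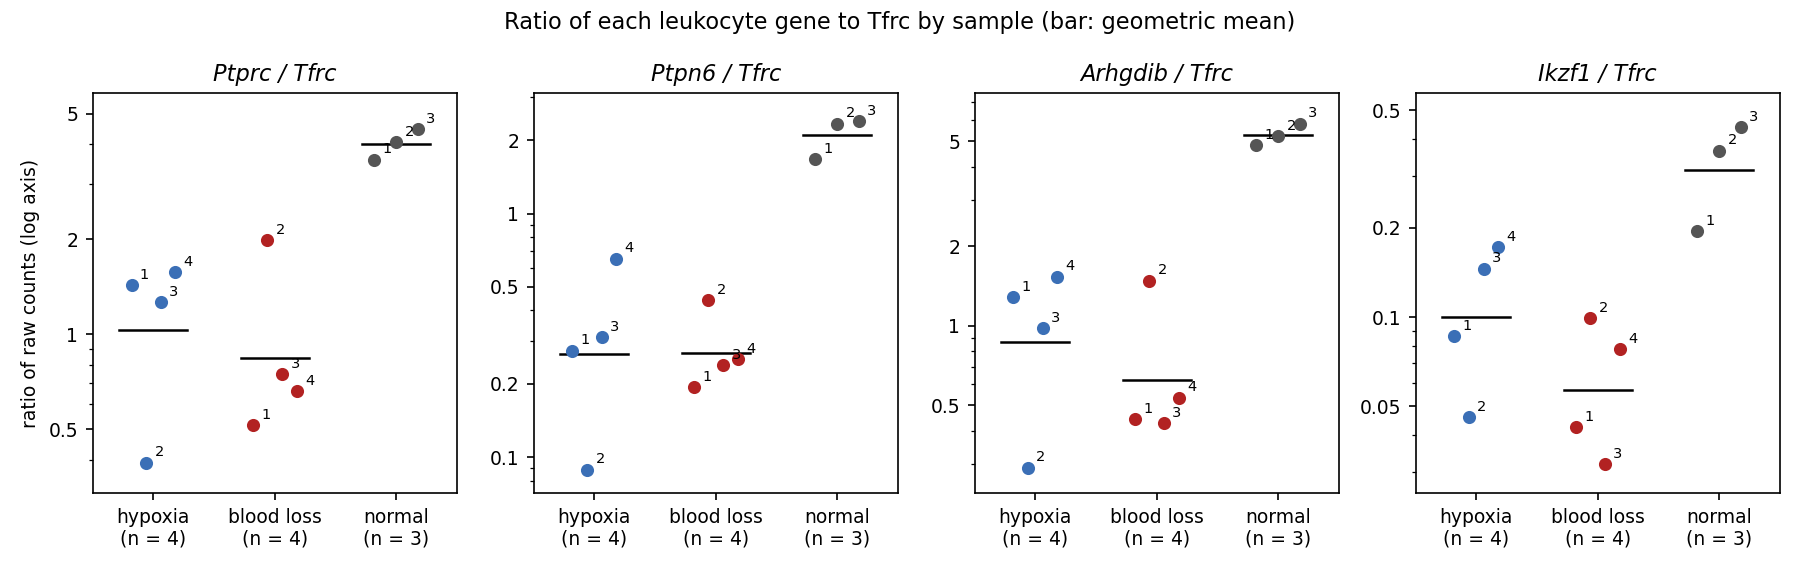
Ratio of the raw count of each leukocyte gene to that of Tfrc in the same sample (y axis, log scale) for hypoxia, blood loss and normal samples, with replicate numbers at the points and the geometric mean as a bar. For each of the 4 genes the 8 treated samples lie below the 3 normal samples, with Ptprc at 0.392 to 1.99 in treated and 3.58 to 4.45 in normal samples.

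Ptprc per Tfrc was 1.43, 0.392, 1.27 and 1.58 in hypoxia samples, 0.515, 1.99, 0.746 and 0.662 in blood loss samples and 3.58, 4.06 and 4.45 in normal samples. The highest treated sample, blood loss sample 2, thus had 1.99 Ptprc counts per Tfrc count, and the lowest normal sample 3.58. Ptpn6 per Tfrc was 0.273, 0.0888, 0.310 and 0.653 in hypoxia, 0.194, 0.440, 0.238 and 0.253 in blood loss and 1.67, 2.34 and 2.39 in normal samples. Arhgdib per Tfrc was 1.28, 0.291, 0.983 and 1.54 in hypoxia, 0.442, 1.48, 0.429 and 0.535 in blood loss and 4.83, 5.24 and 5.82 in normal samples. The low points are hypoxia sample 2, where Tfrc is high, and blood loss samples 1, 3 and 4. Ikzf1 per Tfrc was 0.0861, 0.0459, 0.146 and 0.172 in hypoxia, 0.0424, 0.0989, 0.0317 and 0.0781 in blood loss and 0.195, 0.365 and 0.438 in normal samples. The value of 0.0317 rests on 2 Ikzf1 counts and has a 95% interval of 0.00376 to 0.120, which like all such intervals covers counting error only. No treated sample overlapped the normal samples for any of the 4 ratios.

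The fitted log2 difference of the ratio to Tfrc against normal was -1.79 for Ptprc, -2.69 for Ptpn6, -2.37 for Arhgdib and -1.59 for Ikzf1 in hypoxia, with standard errors of 0.52 to 0.62. After blood loss it was -2.05, -2.93, -2.88 and -2.38, with standard errors of 0.57 to 0.64. All passed edgeR's quasi-likelihood test, with adjusted p-values of 2.43e-05 to 0.00758 in hypoxia and 1.02e-05 to 0.00228 after blood loss. That test pools spread across genes although all genes of a sample share the same Tfrc count, so these p-values are too small. A linear model fitted gene by gene, with 8 residual degrees of freedom and nothing pooled, gave adjusted p-values of 0.0303, 0.0127, 0.0200 and 0.0353 in hypoxia and 0.0178, 0.0122, 0.0122 and 0.0148 after blood loss for Ptprc, Ptpn6, Arhgdib and Ikzf1. The exact permutation test, with its one-sided p doubled, gave 0.0571 for each, the smallest p that this doubling allows with 4 against 3 samples. Without normal sample 1 all 8 ratios passed edgeR's test, at -2.84 to -1.84 in hypoxia and -3.08 to -2.13 after blood loss. The share of all genes passing in that fit is not given here. With normal sample 1 as the only normal sample, 0 of the 4 passed in hypoxia (-2.34 to -0.80, adjusted p 0.0619 to 0.564), and after blood loss Ptpn6 and Arhgdib passed (adjusted p = 0.0269 for both) while Ptprc and Ikzf1 did not.

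The drop relative to Tfrc was shared by most of the panel. Relative to Tfrc 65.5% of the other 281 genes were called lower in hypoxia and 73.7% after blood loss, or 55.9% and 60.5% by the model that pools nothing. The groups did not overlap, with the treated group lower, for 72.2% and 73.3% of genes. Being lower per Tfrc is thus what most genes show, and the count of 4 of 4 sets the leukocyte genes little apart from that background. The median log2 difference of all genes relative to Tfrc was -1.50 in hypoxia and -1.74 after blood loss. Relative to that median, Ptprc stood at -0.29 and -0.31 and Ikzf1 at -0.086 and -0.64 in hypoxia and after blood loss, while Ptpn6 stood at -1.19 in both and Arhgdib at -0.87 and -1.14.

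Between hypoxia and blood loss the ratios to Tfrc were not told apart. The log2 differences by the gene-by-gene model were 0.29 (95% interval -0.98 to 1.55) for Ptprc, -0.039 (-1.34 to 1.26) for Ptpn6, 0.47 (-0.90 to 1.84) for Arhgdib and 0.61 (-0.52 to 1.75) for Ikzf1. The exact permutation test gave p-values of 0.200 to 0.971, where 70 splits of 4 against 4 could reach 0.0286. Relative to Tfrc 0 of 281 genes were called between these groups by either model, with 21 at an unadjusted p under 0.05 in edgeR's test.

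Set against Ptprc in place of Tfrc, the leukocyte genes did not keep their proportions. Arhgdib fell per Ptprc count in hypoxia and after blood loss, Ptpn6 fell in hypoxia, and Ikzf1 was not called. Relative to Ptprc 8.19% of 281 genes were called lower and 28.5% higher in hypoxia, and 4.63% lower and 31.3% higher after blood loss. The model that pools nothing called 4.27% and 2.49% lower, and the treated group lay wholly below the normal samples for 9.25% and 4.27% of genes. These ratios stay within the 4 genes and use neither housekeeping genes nor Tfrc.

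**Figure D4:**
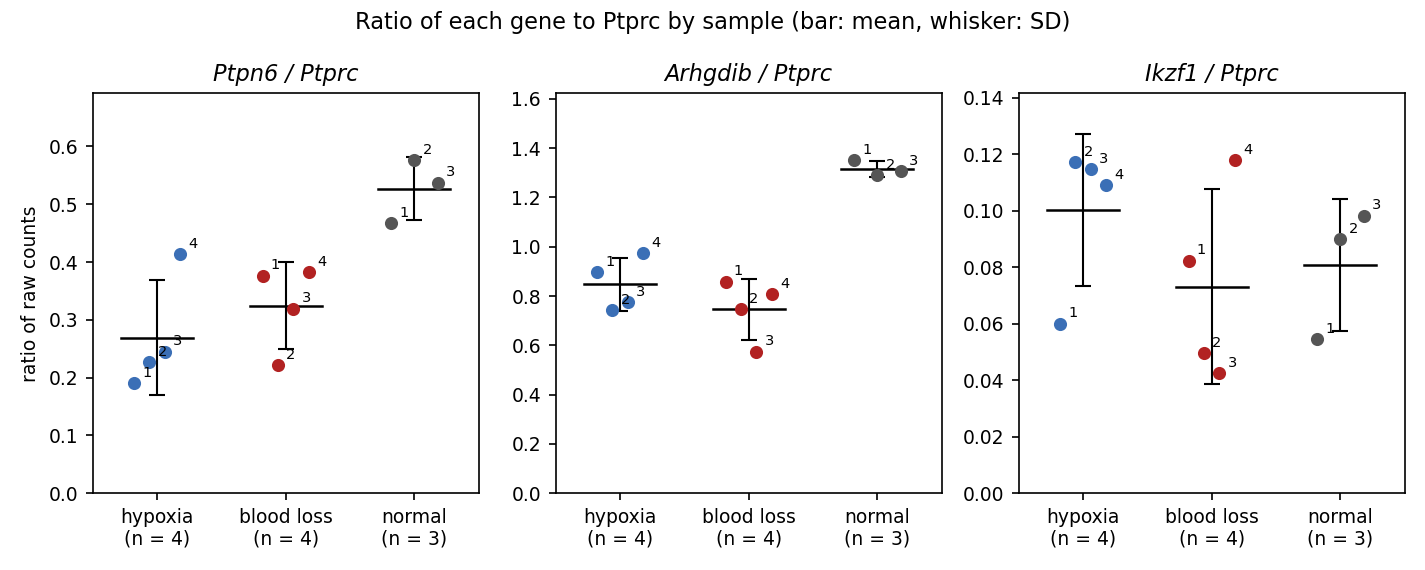
Ratio of the raw count of Ptpn6, Arhgdib and Ikzf1 to that of Ptprc in the same sample (y axis, from 0) for hypoxia, blood loss and normal samples, with replicate numbers at the points, the mean as a bar and the SD as whiskers. The normal samples of Arhgdib per Ptprc lie at 1.29 to 1.35, above the treated samples at 0.574 to 0.974.

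Arhgdib per Ptprc was 0.896, 0.742, 0.776 and 0.974 in hypoxia samples, 0.859, 0.746, 0.574 and 0.809 in blood loss samples and 1.35, 1.29 and 1.31 in normal samples. The 3 normal samples were within a narrow range although their total counts differed widely, and all treated samples lay below them. The means were 0.847 ± 0.107 in hypoxia, 0.747 ± 0.124 in blood loss and 1.32 ± 0.0317 in normal samples (SD, n = 4, 4 and 3). By edgeR's quasi-likelihood test on counts per Ptprc the adjusted p was 0.0380 in hypoxia and 0.0139 after blood loss, and by the gene-by-gene model 0.0218 and 0.00810. The edgeR values carry the same limit as those per Tfrc, since all genes of a sample share its Ptprc count. The hypoxia call passed edgeR's test with only 1 of the 7 samples left out in turn (adjusted p 0.0321 to 0.101). The call after blood loss passed with each (0.0124 to 0.0490). Without normal sample 1 the hypoxia value was -0.62 and did not pass (adjusted p = 0.0563). With normal sample 1 as the only normal sample neither passed, at -0.67 in hypoxia (adjusted p = 0.208) and -0.84 after blood loss (adjusted p = 0.111).

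Ptpn6 per Ptprc was 0.191, 0.227, 0.245 and 0.414 in hypoxia samples, 0.376, 0.221, 0.319 and 0.382 in blood loss samples and 0.468, 0.576 and 0.538 in normal samples. No treated sample reached the normal range, and hypoxia sample 4 and blood loss samples 1 and 4 came nearest to it. The log2 difference against normal was -0.96 (SE 0.28, adjusted p = 0.0108) in hypoxia and -0.71 (SE 0.30, adjusted p = 0.0674) after blood loss. The gene-by-gene model gave adjusted p-values of 0.0378 and 0.0966, so the blood loss difference did not pass in either. The hypoxia difference was -1.04 without normal sample 1 (adjusted p = 0.0126), and with that sample as the only normal one it was -0.79 and did not pass (adjusted p = 0.234).

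Ikzf1 per Ptprc was 0.0601, 0.117, 0.115 and 0.109 in hypoxia samples, 0.0824, 0.0497, 0.0426 and 0.118 in blood loss samples and 0.0545, 0.0899 and 0.0983 in normal samples. The 3 groups overlapped, and the log2 difference against normal was 0.27 (SE 0.31, adjusted p = 0.500) in hypoxia and -0.097 (SE 0.37, adjusted p = 0.857) after blood loss. Without blood loss sample 2, blood loss sample 3 or normal sample 3 the blood loss difference changed sign, at 0.13, 0.0044 and 0.062, and was not called.

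Across the 11 samples the levels of Ptprc and Arhgdib had a Pearson correlation of 0.91, those of Ptpn6 and Arhgdib 0.90 and those of Ptprc and Ptpn6 0.86 on the log2 scale. Ikzf1 was less like the others, at 0.48 with Ptprc, 0.62 with Ptpn6 and 0.61 with Arhgdib. All these values share the housekeeping factor and the difference between groups, and with TMM factors that of Ptprc and Ptpn6 was 0.60, while those of Ikzf1 with Ptprc, Ptpn6 and Arhgdib were 0.21, 0.35 and 0.42. With the housekeeping scaling the 3 genes most like Ptprc were Ms4a1, H2-DMb2 and Jak1, at 0.91 to 0.92. With TMM factors these 3 had 0.72, 0.74 and 0.69, below the 0.88 of Arhgdib with Ptprc. Ms4a1 encodes the B cell surface protein CD20, H2-DMb2 a chain of the peptide loader of MHC class II, and Jak1 a cytokine receptor kinase. Ms4a1 (0.93) and H2-DMb2 (0.92) were also the most like Ptpn6, followed by Klra8 (0.92), an NK cell receptor gene. Arhgdib was most like Ltb (0.91), which encodes lymphotoxin beta, then Ptprc and Ccl9 (0.90), a chemokine gene. Ikzf1 was most like Bcap31 (0.89), with Cd79b (0.81) also among its 3 most like genes. With TMM factors the 3 genes listed for each had 0.80 to 0.87 with Ptpn6, 0.81 to 0.88 with Arhgdib and 0.73 to 0.87 with Ikzf1.

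The lists of related genes below are read against the same background as the members: 36.5% of all tested genes called lower in hypoxia and 17% after blood loss, with medians of -0.56 and -0.26. The shares called higher were 7.09% and 9.22%. Among the tyrosine and inositol phosphatases, 4 were on the panel and tested, the members Ptprc and Ptpn6 among them. With the housekeeping scaling 3 were called lower in hypoxia: Ptprc, Ptpn6 and Ptpn22, a phosphatase that restrains T cell receptor signals. Ptpn22 stood at -0.77 in hypoxia (adjusted p = 0.0431) and was called there in 1 of the 6 settings. With TMM factors, the deposited size factors and DESeq2 the list had 1 lower and 1 higher in hypoxia, and with the other scalings 2 lower. After blood loss Ptpn6 alone of the 4 was called with the housekeeping scaling, and 1 to 3 were lower over the 6 settings. Ptpn2, a phosphatase acting on JAKs and STATs, stood at 0.13 in hypoxia and 0.25 after blood loss and was not called, though 3 of the 6 settings called it higher in hypoxia.

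Of 5 tested kinases and adaptors on which CD45 or SHP-1 act, 3 were called in hypoxia and 2 after blood loss, all lower, with a median log2 fold change of -0.76 and -0.44, against -0.56 and -0.26 for all genes. Over the 6 settings the counts were 2 to 3 in hypoxia and 1 to 3 after blood loss. Lck, the Src-family kinase of T cells and a classical CD45 substrate, averaged levels of 57.3 in hypoxia, 70.6 in blood loss and 149 in normal samples and was called in both (log2 fold changes -1.34 and -1.12). It was called in all 6 settings in hypoxia and in 4 after blood loss. Btk, the Tec-family kinase of B cells, was called in hypoxia (-1.35, adjusted p = 0.000928) in all 6 settings. Blnk, the B cell linker downstream of Syk, was called after blood loss (-0.99, adjusted p = 0.0177) in all 6. Syk was called in hypoxia in the housekeeping scaling alone.

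The inhibitory receptors that recruit SHP-1 were the list with the largest share lower in hypoxia among the 6 lists of related genes. Of 7 tested receptors 6 were called lower, with a list median of -1.40 against -0.56 for all genes. Cd22, an inhibitory lectin of B cells, averaged levels of 31.0 in hypoxia, 71.7 in blood loss and 129 in normal samples, and stood at -2.05 in hypoxia (adjusted p = 0.000279). Pecam1 (-1.41), Fcgr2b, the inhibitory Fc receptor (-1.30), Klrc1, an NK cell receptor gene (-1.68), Cd5 (-1.40) and Btla (-1.03) were the other members called in hypoxia. Cd22, Pecam1, Fcgr2b and Klrc1 were called in all 6 settings, Cd5 in 4 and Btla in 3. After blood loss 1 of the 7, Cd5 at -1.19 (adjusted p = 0.0412), was called, and the count was 0 to 5 over the settings.

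The JAK, STAT5 and cytokine receptor genes on which SHP-1 acts did not move one way. Of 9 tested, 3 were called lower and 0 higher in hypoxia in edgeR's test with housekeeping scaling, with 1 higher at an unadjusted p under 0.05, and DESeq2 called 2 lower and 3 higher. Csf1r, the receptor for macrophage colony-stimulating factor, was lower in hypoxia at -2.66 (adjusted p = 3.07e-06), with mean levels of 9.89 in hypoxia, 28.9 in blood loss and 58.3 in normal samples. Csf1r and Stat5b, at -1.23, were called lower in hypoxia in all 6 settings, and Jak1, at -0.82, in 3 of 6 (range -0.82 to -0.28). After blood loss Csf1r was lower (-1.08), called in 3 of 6 settings (-1.44 to -0.77), while Jak2, the kinase of the erythropoietin receptor, was higher at 0.81 (adjusted p = 0.0482) and Csf2rb, the beta chain shared by receptors for IL-3 and GM-CSF, at 1.28 (adjusted p = 0.0422). Jak2 averaged levels of 104 in hypoxia, 117 in blood loss and 65.6 in normal samples, and it was called higher in 5 of the 6 settings in hypoxia, though not in the housekeeping scaling (0.65, adjusted p = 0.0652), and in 4 after blood loss.

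Of 7 tested Ikaros-family and lymphoid transcription factor genes, the member Ikzf1 among them, 2 were called lower in hypoxia and 3 after blood loss. Over the 6 settings the counts were 1 to 2 and 2 to 5. The hypoxia share is below the 36.5% of all tested genes, with a list median of -0.46 against -0.56. The share after blood loss is above the 17% of all genes, with a list median of -0.87 against -0.26. That median of -0.87 is the value of Ikzf1 itself, so it is not separate from the members. Tcf7, a T cell factor, was lower in both, at -1.81 (adjusted p = 7.29e-05) in hypoxia and -1.62 (adjusted p = 0.00183) after blood loss, in all 6 settings. Ikzf3, the Ikaros relative Aiolos, averaged levels of 63.2 in hypoxia and 125 in normal samples and was called in hypoxia (adjusted p = 0.0130), in 3 of 6 settings. Irf8, a factor of myeloid and B cell development, and Irf4, a factor of plasma cells and activated lymphocytes, were called after blood loss at -1.24 and -1.02 and stood at -0.46 and -0.21 in hypoxia. Between hypoxia and blood loss neither was called with the housekeeping scaling, and 5 settings called Irf8 and 4 called Irf4 higher in hypoxia.

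Other surface genes shared by leukocytes did not all follow Ptprc. Of 7 tested, 3 were lower and 1 was higher in hypoxia, in each of the 6 settings. Cd48, a ligand of 2B4, was lower at -1.49 and Itgb2, the beta-2 integrin chain, at -1.40. Cd53, a tetraspanin of leukocytes, was higher in hypoxia at 0.75 (adjusted p = 0.0457), with mean levels of 58.8 in hypoxia, 56.5 in blood loss and 34.5 in normal samples. After blood loss 0 of the 7 were called in edgeR's test with housekeeping scaling, with 1 lower and 1 higher at an unadjusted p under 0.05, and the split was not stable. TMM factors and DESeq2 called 1 higher and 0 lower, whereas all 14 housekeeping genes called 2 lower and the deposited size factors 3 lower, with 0 higher in both.

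Markers of other cell types moved with the conditions. The summed level of 9 B cell markers was 1092 to 1775 in hypoxia, 1073 to 2128 in blood loss and 1723 to 3381 in normal samples, with 5 of 9 called lower in hypoxia and 3 of 9 after blood loss, where 36.5% and 17% of all tested genes were. Over the 6 settings these counts were 3 to 5 and 3 to 6. The 14 T and NK cell markers on the panel summed to 562 to 992, 729 to 1201 and 1183 to 1404 in hypoxia, blood loss and normal samples, with 8 and 5 of 10 tested called lower. The counts called lower were 5 to 8 in hypoxia over the settings. After blood loss they were 2 with TMM factors, without Rpl19 and by DESeq2, 7 with 14 housekeeping genes and 8 with the deposited factors. The sum of 7 macrophage and dendritic markers was 34.3 to 155 in hypoxia, 148 to 255 in blood loss and 177 to 361 in normal samples, with 4 and 2 of 5 tested called lower, and 3 to 4 and 1 to 2 over the settings. The 6 granulocyte markers summed to 1648 to 3797 in hypoxia, 3057 to 7025 in blood loss and 1764 to 2394 in normal samples. Of 3 tested 1 was called higher in hypoxia and 2 after blood loss, where 7.09% and 9.22% of all tested genes were. Camp, an antimicrobial peptide gene of neutrophil granules, rose by 2.10 and 2.71 log2 units in hypoxia and after blood loss, in all 6 settings. Not all granulocyte genes followed it in hypoxia. S100a8 stood at -0.25 in hypoxia (-0.25 to 0.37 over the settings) and 0.54 after blood loss and was called in neither. S100a9 stood at 0.95 in hypoxia (adjusted p = 0.0956) and was called after blood loss at 1.86 (adjusted p = 0.00555). Csf3r averaged levels of 6.94 in hypoxia, 18.4 in blood loss and 23.4 in normal samples, and Cxcr2 1.16, 8.18 and 10.4, both too low to be tested. No deposited count was 0, since the lowest deposited value is 1. Raw counts went down to 1 for Cxcr2 and to 2 for Csf3r. Scaling raises such a count most where the housekeeping factor is smallest. That factor ran from 0.135 up to 0.711 after blood loss, against 1.02 up to 1.78 for hypoxia. The levels of Cxcr2 and Csf3r are therefore not compared between these groups. Each sum above also holds raw counts down to 1 in the blood loss group. The part of these cell types in the levels of Ptprc, Ptpn6, Arhgdib and Ikzf1 was not tested.

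Among the erythroid genes Tfrc, Tal1 and Cd36 were called higher and Cd55 lower in both conditions. Of all tested genes 7.09% were called higher in hypoxia and 9.22% after blood loss, and 36.5% and 17% lower. Tal1 passed the filter through treated samples alone, with raw counts of 11, 89, 29 and 31 in hypoxia, 12, 8, 8 and 37 in blood loss and 3, 11 and 14 in normal samples, so that it had to differ. Its background in normal samples is not known, and no fold is given for it. Cd36, a scavenger receptor on early erythroid cells, rose by 1.16 and 1.39 log2 units in hypoxia and after blood loss, in all 6 settings. Cd55, a complement regulator, stood at -1.11 in hypoxia and -1.13 after blood loss. It was called lower in 5 of the 6 settings in hypoxia and in all 6 after blood loss.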

How the data were processed

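The authors deposited raw counts, whole numbers for 561 genes. Their deposited normalized signal is each raw count over 1 factor per sample, as checked here, and their deposited log2 table is log2 of the signal plus 1 (largest gap 0.00500). Counting software and background handling are not stated in these sources.

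Groups followed the labels. Raw counts of 11 samples were fitted with edgeR 4.0.16 (quasi-likelihood, robust; R 4.3.3), scaled by the 6 housekeeping genes averaging 100 raw counts or more (Rpl19, Ppia, Polr2a, Oaz1, Gapdh and Eef1g). Genes with a count of 20 or more in at least 3 samples were tested, with a call at a p under 0.05 after Benjamini-Hochberg adjustment over all of them. Ratios used the Tfrc or Ptprc count as the scale. The fits were tested on simulated counts. DESeq2 1.42.0, other scalings, filters and thinned counts were alternatives. Replicates differed by more than counting noise (chi-square per degree of freedom 1.56 to 13.7, and 66.9 and 82.7 for normal sample 1 against normal samples 2 and 3). Same-numbered samples did not deviate together (correlations -0.30 to 0.12).

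Members and lists were chosen with earlier results of these data known. The gene-by-gene linear model and the promoter motif were chosen after seeing the data. Genes named beside the members were, by rule, the 3 most correlated with each and the called list members with the smallest p. Others are named to state small counts, and some genes that the rule gives are not reported here.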

Additional observations from a re-analysis of the deposited data

Results flagged for a closer look

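Of 24 groups of 4 samples examined, 5 held a sample far from the others (Dixon's criterion at 95%), where chance gives about 1 in 20. Tfrc stood at a level of 642 in hypoxia sample 2. Ikzf1 per Ptprc stood at 0.0601 in hypoxia sample 1, below the other hypoxia samples. The other 3 are in blood loss sample 2: an Arhgdib level of 344, Ptprc per Tfrc of 1.99 and Arhgdib per Tfrc of 1.48, each above the rest of that group. These 3 are not independent, since they share the counts of 1 sample.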

How the results depend on the processing

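With TMM factors Ptprc in hypoxia against normal was -0.32 (not passing), and between hypoxia and blood loss Ptprc was 0.10 and Arhgdib 0.28. With DESeq2 these were -0.35, 0.12 and 0.29. With the deposited size factors the calls were 138 after blood loss and 97 between hypoxia and blood loss (94 of them higher), where Ptprc, Ptpn6, Arhgdib and Ikzf1 stood at 0.67, 0.46, 0.84 and 1.05. Ptprc and Ikzf1 after blood loss then passed at -1.09 and -1.20, and Ptprc in hypoxia did not, at -0.43. With 14 housekeeping genes they passed after blood loss at -0.93 and -1.16, and between hypoxia and blood loss 7 genes were called, with Ptprc, Ptpn6 and Arhgdib at 0.18, 0.055 and 0.39. Arhgdib there was 0.052 without Rpl19 and 0.082 in thinned counts. With no filter 196, 247 and 235 genes were called for hypoxia and blood loss against normal and hypoxia against blood loss. Thinning every sample to 7016 counts left 61, 41 and 0 (65 at an unadjusted p under 0.05 in edgeR's test), against 123, 74 and 32. Ptprc in hypoxia was then at -0.80, not passing. In this random draw fewer genes were thus called than at full depth. All 12 columns gave 234, 114 and 80. Ptprc after blood loss was then at -0.67 and Ikzf1 at -0.68 in hypoxia and -0.92 after blood loss, all passing. Ptpn6 per Ptprc after blood loss, at -0.75, passed too. The added normal column is derived from the other normal columns. It is no further sample and narrows the normal spread, so these passes carry no weight. Fitting only the groups compared, Ikzf1 after blood loss passed at -0.87.

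With a replicate block, which the sample numbers do not justify, Ptprc per Tfrc in hypoxia did not pass (-1.75), while Ptpn6 per Ptprc after blood loss (-0.91) and Ikzf1 in hypoxia (-0.68) did. The block changed no other call of the 4 genes and gave 123, 68 and 30 calls. The exact permutation test, with its one-sided p doubled, cannot pass with 4 against 3 samples. Its log2 differences per Tfrc against normal were -1.96, -2.99, -2.61 and -1.66 in hypoxia and -2.25, -2.98, -3.08 and -2.47 after blood loss for Ptprc, Ptpn6, Arhgdib and Ikzf1. Per Ptprc they were -1.03 for Ptpn6 and -0.64 for Arhgdib in hypoxia and -0.83 for Arhgdib after blood loss. Ptpn6 per Tfrc between hypoxia and blood loss was -0.015 there and -0.039 in limma and in the gene-by-gene model, against 0.24 in edgeR's test.

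With normal sample 1 as the only normal sample, chosen after seeing the data and assumed to vary like the other groups, 20 and 17 genes were called in hypoxia and after blood loss. In hypoxia Ptprc was -0.70 and Ikzf1 0.19; after blood loss Ptpn6 was -1.08 (adjusted p = 0.126). None of these passed. Nor did the ratios per Tfrc of Ptprc, Ptpn6, Arhgdib and Ikzf1 in hypoxia (-1.62, -2.34, -2.24 and -0.80), those of Ptprc and Ikzf1 after blood loss (-1.87 and -1.60), or, per Ptprc, Ptpn6 (-0.79) and Arhgdib (-0.67) in hypoxia and Arhgdib (-0.84) and Ikzf1 (0.51) after blood loss.

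Leaving out each sample in turn gave 67 to 133 calls in hypoxia, 39 to 94 after blood loss and 12 to 40 between them. The lowest were without normal sample 2 for the first pair (67 and 39; 75 and 46 without normal sample 3; 47 after blood loss without blood loss sample 4). Between the treated groups they were 12, 16, 17, 17 and 21 without blood loss 2, hypoxia 3, hypoxia 1, blood loss 4 and blood loss 3. Against normal Ptprc ranged from -0.96 to -0.79 in hypoxia and from -0.87 to -0.53 after blood loss, and Ikzf1 from -0.85 to -0.43 and from -1.09 to -0.72. Ikzf1 per Tfrc in hypoxia ranged from -1.87 to -1.33 (not passing without normal sample 3), Arhgdib per Ptprc in hypoxia from -0.71 to -0.58 and Ikzf1 per Ptprc after blood loss from -0.51 to 0.13. Between hypoxia and blood loss Arhgdib ranged from -0.15 to 0.19 and Ptpn6 per Tfrc from -0.33 to 0.57. The level calls of Ptpn6 and Arhgdib against normal passed in every leave-one-out fit.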
